A study of Homo sapiens with 131 samples.

Results

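Nuclear lamins, the lamin B receptor, emerin and the proteins that link the nuclear envelope to the cytoskeleton were described in single HAP1 cells in the middle of S-phase. The group holds 9 genes of the 60708 in the gene expression table: LMNA, LMNB1, LMNB2, LBR, SYNE1, SYNE2, SUN1, SUN2 and EMD. They were selected on a result of these same cells, the spliced RNA of SYNE1 in cells with 2 copies against cells with 1 copy of the gene, together with the other genes of its complex and of the lamina. HAP1 is a nearly haploid human line derived from a leukaemia that grows attached to the dish, so most loci are present once until replication brings them to 2 copies. DNA and RNA of the same sorted cell were sequenced as separate libraries (scRR-seq). The labels list 63 mid-S cells and 5 DNA libraries of G1 cells. RNA and copy states were used for 56 of them, all untreated and of 1 biological experiment, so every error and p-value covers only the spread between these cells. The cells are compared by the copy state of each gene: 2-copy (replicated) against 1-copy (not yet replicated).

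The lamina is a mesh of A-type lamins (LMNA) and B-type lamins (LMNB1, LMNB2) under the inner nuclear membrane. LBR and emerin (EMD) are inner membrane proteins that bind lamins and chromatin. SUN proteins cross the inner membrane and hold the KASH domains of nesprins (SYNE1, SYNE2) of the outer membrane, and together they form the LINC complex, which couples the nucleus to actin, microtubules and motors. The lamina is also known for the late-replicating heterochromatin that lies against it.

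The replication score, the percentage of 40-kb bins called 2-copy in a cell, had a median of 54.1% and ran from 39.7% to 67.2% in the 56 cells. Between 12045 and 15028 genes per cell reached 1 TPM (reads scaled for gene length and for the total of the cell). Unspliced totals ran from 425181 to 1353931 counts per cell. Ordered by cell number, the libraries split into a later set of 27 cells and a first set of 29 cells, which the labels do not name as batches. The median mitochondrial share of TPM was 3.28% in the later set and 11.1% in the first, and the median unspliced total was 568578 in the later set and 812254 in the first. Blood markers had a median of 0 TPM for all 9 genes listed, and 4 of them (SPI1, MPO, ITGAM, HBG2) were at 0 in every cell. Their summed level ran from 0 to 59.02 TPM, of which PTPRC gave 58.65 TPM in 1 cell. Of 5 fibroblast markers, 4 had a median of 0 TPM and COL1A1 had 0.74 TPM.

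LBR RNA was by far the most abundant of the group and SYNE1 RNA was close to absent. LBR, a sterol reductase and tether of heterochromatin, had 140 TPM in the lowest cell, a median of 382 TPM and 812 TPM in the highest cell. It was above SUN1, the next gene, in 55 of 56 cells, with a mean difference of 2.03 ± 0.99 on the log2(TPM + 1) scale (SD, n = 56). SUN1, LMNB1 and EMD followed with medians of 93.2, 93.0 and 86.8 TPM and could not be ordered. SUN1 was above LMNB1 in 26 of 56 cells, and LMNB1 above EMD in 31. LMNB2, SYNE2 and LMNA came next, at medians of 60.97, 55.5 and 53.1 TPM. Neighbours in this part of the order also differed by less than their spread, since LMNB2 was above SYNE2 in 30 cells and SYNE2 above LMNA in 29. SUN2 had a median of 19.6 TPM and was below LMNA in 48 of 56 cells. SYNE1 ended the order at 0.17 TPM and was below SUN2 in 50 of 56 cells.

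**Figure D1:**
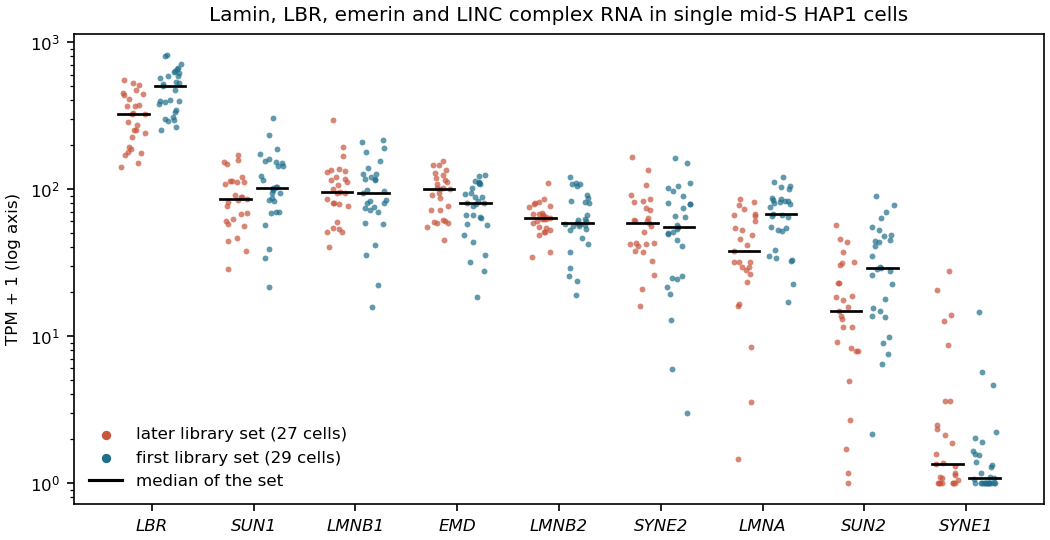
RNA of the 9 genes in each mid-S cell (points, TPM + 1 on a log axis), with the later library set left of the first set and the median of each set as a bar. LBR lies highest (median 382 TPM), most genes overlap between 50 and 100 TPM, and most SYNE1 points lie at or near 0 (median 0.17 TPM).

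Among the lamins, LMNB1 was usually the highest. LMNB1, a farnesylated lamin that stays at the membrane (chr5:126776623-126837020, plus strand, hg38), ran from 14.6 to 293 TPM. It took a median of 46.6% of the summed TPM of the 3 lamin genes and was the highest of them in 38 of 56 cells. LMNB2 (chr19:2427638-2456959, minus strand) took a median of 30.2% and was the highest in 12 cells. LMNA, whose transcripts encode lamins A and C (chr1:156082573-156140081, plus strand), took a median of 25.9% and was the highest in 6 cells. LMNB2 ran from 18.1 to 120 TPM with a coefficient of variation (SD over mean) of 0.35, the lowest of the group over all cells. It was 0.24 in the later set and 0.43 in the first, where LBR (0.33), EMD (0.38) and LMNA (0.41) were lower. Of 3894 genes whose median lay within 2-fold of that of LMNB2, 0.796% had a lower coefficient. EMD had a coefficient of 0.37, with 4.46% of 2892 such genes below it. For LMNB1 (0.505), SUN1 (0.508) and SYNE2 (0.600) between 43.7% and 49.4% of genes at a like level had a lower coefficient, and for LMNA (0.530) 27.3%. LMNA ran from 0.45 to 120 TPM, and its median was 36.7 TPM in the later library set and 66.7 TPM in the first. LMNB1 (93.6 and 92.4 TPM) and LMNB2 (62.15 and 57.5 TPM) had medians closer together in the later and first sets. All 6 genes listed that mature the lamin tail had a median of at least 5 TPM, although RCE1 was at 0 in 11 of 56 cells. They were led by FNTA, a subunit of farnesyltransferase, at 125 TPM and ZMPSTE24, the protease that cuts prelamin A, at 83.1 TPM.

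The gene closest to LMNB1 over the 56 cells was TMPO, which encodes the lamin-binding LAP2 proteins. Spearman's rho was 0.49 once the mean rank of each library set had been subtracted. FAM111A, a protease of replicating cells (0.48), and KIF11, a spindle kinesin (0.48), were next. These are the highest of 8446 genes and are given as a description. The central 90% of all gene pairs lay between -0.23 and 0.24, and all pairs share the same cells and libraries. The 250 bases before the downstream RefSeq start of LMNB1 (GRCh38.p14, chr5:126776886-126777135, plus strand) and before that of TMPO (chr12:98515323-98515572, plus strand) are shown because these genes varied together. Capitals mark CCAAT or its reverse complement ATTGG, the box that the factor NF-Y is known to bind in promoters of many cell-cycle genes.
LMNB1: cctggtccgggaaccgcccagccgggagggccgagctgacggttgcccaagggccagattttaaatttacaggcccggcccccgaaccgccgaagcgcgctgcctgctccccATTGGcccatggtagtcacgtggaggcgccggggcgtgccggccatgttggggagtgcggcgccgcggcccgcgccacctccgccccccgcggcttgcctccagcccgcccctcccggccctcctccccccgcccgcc
TMPO: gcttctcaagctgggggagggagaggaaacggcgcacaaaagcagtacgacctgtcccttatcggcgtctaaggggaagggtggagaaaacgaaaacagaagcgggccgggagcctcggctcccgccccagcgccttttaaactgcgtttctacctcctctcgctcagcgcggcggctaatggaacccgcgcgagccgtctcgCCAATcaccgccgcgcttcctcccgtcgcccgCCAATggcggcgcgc
The LMNB1 window holds 1 match and the TMPO window 2, and an upstream LMNB1 window (chr5:126776373-126776622) holds none. A match occurred in 32.02% of 34788 RefSeq windows of this length, and 2 or more in 9.53%. The motif TTTGAA (or TTCAAA) was in neither gene's windows. A match is a run of letters, not a measured site.

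LMNB1 correlated weakly and negatively with the other lamins (rho -0.24 with LMNA and -0.24 with LMNB2, set removed). With LMNA it was -0.26 within the later set and -0.28 within the first, and with LMNB2 -0.06 and -0.36. Between LMNA and LMNB2 rho was -0.19 with the set removed, -0.50 within the later set and -0.005 within the first. For LMNA the closest genes were TSC22D2 (0.49), PTAR1 (0.47) and LPGAT1 (0.47). For LMNB2 they were ICE1 (0.50), WDR18 (0.47) and KCTD6 (0.46). LMNA and LBR, both on the long arm of chromosome 1, had a rho of 0.33 with the set removed (0.34 within the later set, 0.32 within the first).

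The genes closest to LBR (chr1:225401502-225428925, minus strand) lay on its own chromosome arm. Its closest genes were TMCO1, an endoplasmic reticulum calcium channel (rho 0.67), POGZ, a zinc finger protein that binds HP1 (0.65), and CKS1B, a small subunit of cyclin-dependent kinases (0.63). Of its 20 closest genes, 19 lay on the long arm of chromosome 1, which holds 4.87% of the 8446 genes compared. For LMNA 7 of 20 lay there, and for the other 6 genes with a median of at least 5 TPM none did. The level of the arm in each cell was then taken, after these neighbours had been seen, as the median over 409 long-arm genes of log2(TPM + 1) less the gene's mean and the cell's median over all genes, without the 9 genes studied here. It had an SD of 0.39 over cells, against 0.06 to 0.17 on the short arm and the other chromosomes except chromosome 18 (0.51, with 1 cell at -3.64). No cell lay between -0.14 and 0.16. Below this gap were 28 cells, down to -0.61 (16 of the later set and 12 of the first), and above it 28 cells, up to 0.50 (11 of the later set and 17 of the first). As the arm levels form 2 clusters, rho was taken within each. For LBR it was 0.21 in the 28 cells above the gap and 0.55 in the 28 below. Below the gap the library sets lay apart, the later set from -0.61 to -0.39 and the first set from -0.36 to -0.14, and rho for LBR was 0.06 within the 16 later-set cells and 0.20 within the 12 first-set cells. Across both clusters it was 0.69 within the later set and 0.53 within the first, values that span the gap. For LMNA it was -0.14 above and 0.48 below (-0.29 in the later set and 0.21 in the first). Across both clusters, rho for LMNA was 0.46 within the later set and 0.08 within the first. For LMNB1 on chromosome 5 it was 0.06 above and -0.07 below. Across both clusters, rho for LMNB1 was -0.40 within the later set and -0.34 within the first. The part of the arm level in the correlation of LMNA with LMNB1 was not tested. Chromosome 1 was among 3 chromosomes the authors left out of the copy calls, so no DNA state of LBR or LMNA was analysed here. The paper says that chromosomes it regards as abnormal in a line, and the X, were left out against bias. What lies behind the 2 arm levels was not tested.

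**Figure D2:**
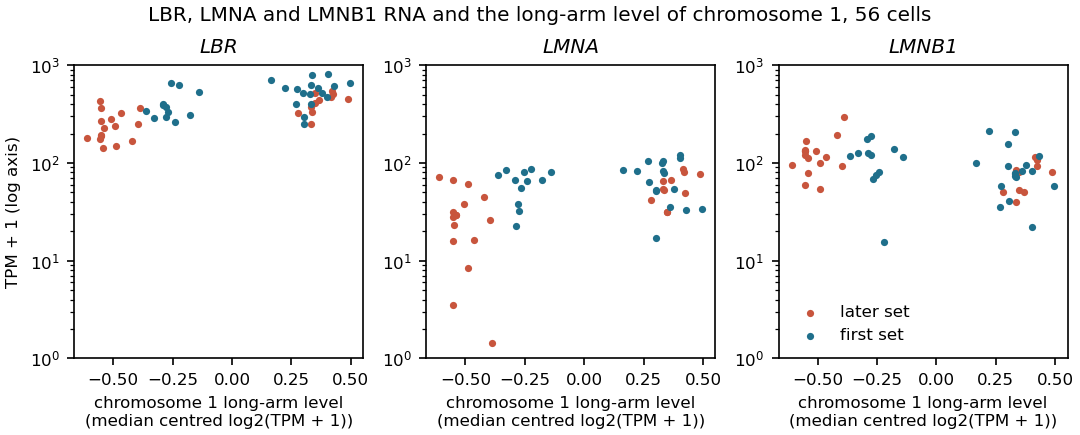
TPM + 1 (log axis) of LBR, LMNA and LMNB1 in 56 cells against the RNA level of the long arm of chromosome 1 in the same cell (median over 409 genes of centred log2(TPM + 1), later and first library sets in colour). The cells form 2 clusters with none between -0.14 and 0.16, and below the gap the later set lies left of the first.

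The median of LBR was 323 TPM in the later library set and 503 TPM in the first, and the first set also had more cells above the gap. The part of the library set in the LBR level was not tested. LBR binds the HP1 proteins, and both CBX3 (225 TPM) and CBX5 (128 TPM) were more abundant than CBX1 (45.6 TPM). The other sterol reductases, TM7SF2 (14.2 TPM) and DHCR7 (30.9 TPM), had medians far below that of LBR.

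EMD encodes emerin, the LEM-domain protein lost in X-linked Emery-Dreifuss muscular dystrophy (chrX:154379273-154381574, plus strand). It ran from 17.5 to 153 TPM. Its median was 98.4 TPM in the later set and 78.8 TPM in the first. Its partners of the inner membrane were all detected: the 12 genes listed had medians of at least 5 TPM, led by TMPO at 218 TPM and BANF1, the DNA-bridging factor that LEM domains bind, at 169 TPM. EMD varied most closely with PCNT, the centrosome scaffold pericentrin (rho 0.57), with SYNE2 (0.50) and with CTD-2192J16.27 (0.49).

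Over all cells, EMD with SYNE2 had the highest correlation of any pair of the group. Their rank correlation was 0.50 with the set removed, 0.34 within the later set and 0.67 within the first, and 0.0272% of 35663235 gene pairs had a higher value. Next came LMNA with LBR (0.33) and LMNB1 with SYNE2 (0.30), which at 0.41 was above EMD with SYNE2 within the later set (0.22 within the first). The lowest value was -0.31, between LMNA and SYNE2. Among the LINC partners, rho was 0.26 for SUN2 with SYNE2, and 4.05% of all gene pairs had a higher value. It was 0.05 for SUN1 with SYNE2 and 0.19 for SUN1 with SUN2. For SYNE1 it was 0.20 with SYNE2, 0.16 with SUN1 and near 0 with SUN2. The bases before the RefSeq starts of EMD (GRCh38.p14, chrX:154379045-154379294, plus strand) and SYNE2 (chr14:63852754-63853003, plus strand) are shown for this pair, with CCAAT or ATTGG in capitals.
EMD: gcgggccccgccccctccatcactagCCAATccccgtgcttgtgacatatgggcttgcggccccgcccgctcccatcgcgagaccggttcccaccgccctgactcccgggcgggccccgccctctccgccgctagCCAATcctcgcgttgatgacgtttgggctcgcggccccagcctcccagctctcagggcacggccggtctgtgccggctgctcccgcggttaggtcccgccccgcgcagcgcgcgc
SYNE2: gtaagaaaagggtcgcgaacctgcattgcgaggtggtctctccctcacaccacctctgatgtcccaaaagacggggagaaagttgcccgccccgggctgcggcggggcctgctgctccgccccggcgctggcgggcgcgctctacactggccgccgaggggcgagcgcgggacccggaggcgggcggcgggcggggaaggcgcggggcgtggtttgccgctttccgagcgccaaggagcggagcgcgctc
The EMD window holds 2 matches and the SYNE2 window, which lies inside the annotated span of the gene, holds none. Of the other SYNE2 windows, that at chr14:64213894-64214143 holds 1 match and that at chr14:64215704-64215953 none. The EMD and SYNE2 windows shown hold 31 and 33 CpG dinucleotides against a median of 11 over all windows. The other SYNE2 windows hold 0 and 2. The number is not particular to this pair. The windows of most CpG held 30 for LMNB2 and SUN2, 29 for LMNB1, 28 for SYNE1 and 23 for LMNA, and 4 for LBR.

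**Figure D3:**
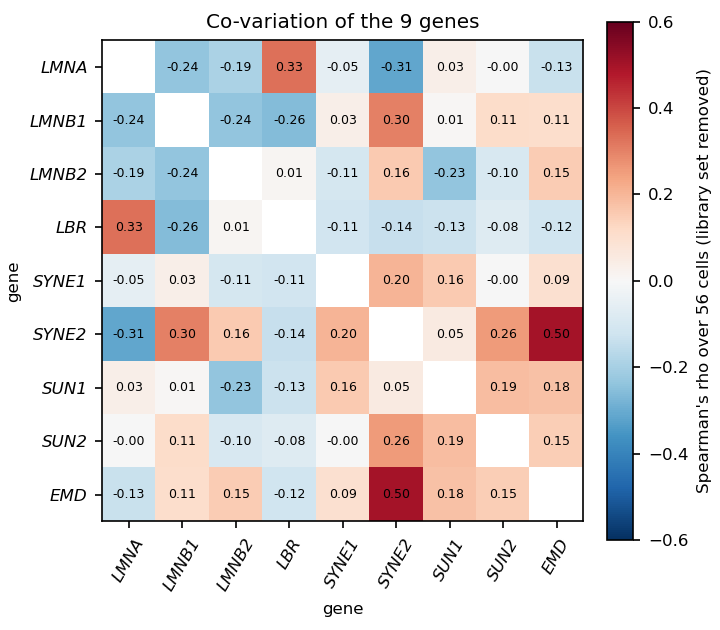
Spearman's rho between each pair of the 9 genes over 56 cells, after the mean rank of each library set was subtracted (red positive, blue negative). SYNE2 with EMD is the highest (0.50) and LMNA with SYNE2 the lowest (-0.31).

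SUN1 RNA was more abundant than SUN2 RNA. SUN1 (chr7:816615-896435, plus strand) ran from 20.7 to 303 TPM, and took a median of 79.5% of the summed SUN1 and SUN2 TPM. SUN2 (chr22:38734725-38794143, minus strand) ran from 0 to 89.1 TPM and was at 0 in 1 cell. Its median was 13.9 TPM in the later set and 27.9 TPM in the first. SUN1 varied most closely with NUMB, a Notch inhibitor (0.57), SNRPD3, a core splicing protein (0.48), and PRRC1 (0.46). SUN2 varied most closely with DHRS11 (0.52), CLDN12 (0.51) and DECR1 (0.51). SYNE2, the giant nesprin-2 (chr14:63761899-64226433, plus strand), ran from 1.99 to 164 TPM and varied most closely with FGD5-AS1 (0.57), ADGRV1 (0.54) and the RNA helicase DDX17 (0.54). The remaining LINC genes listed had medians near 0: 6 of 7 had a median of 0 TPM, SYNE3 had 0.34 TPM, and SUN5 and IRAG2 were at 0 in every cell.

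SYNE1, the giant nesprin-1 (chr6:152121687-152637801, minus strand), was above 0 TPM in 36 of 56 cells and reached 1 TPM in 15. Its coefficient of variation was 2.42, and 83.005% of 406 genes of like median had a lower one. Unspliced SYNE1 reads were also few, with a median of 2.19 and a highest value of 33.2 expected counts over a gene of 516115 bases. Spliced and unspliced SYNE1 ran against each other (rho -0.40, n = 56), and 0.682% of 5572 genes had a lower value, where the median gene had 0.15. The 3 cells with 0 unspliced SYNE1 counts had 12.9, 19.6 and 26.65 TPM of spliced RNA. SYNE2 behaved likewise, with rho -0.44 and 0 unspliced counts in 49 cells beside a spliced median of 55.5 TPM. Exon reads are subtracted to obtain unspliced counts and negative values set to 0, so the 2 measures are tied by construction, and the part of this in the correlation was not tested. SUN1 went the other way (rho 0.36), with a median of 61.8 unspliced counts. Per kb of gene span the median unspliced count was 0.77 for SUN1, 0.51 for SUN2, 0.26 for LMNB1, 0.0042 for SYNE1 and 0 for LMNB2 and SYNE2. Parts of the SUN1 and SUN2 spans are shared with other genes of the same strand, GET4 (19882 bases) and DNAL4 (15636 bases), and SYNE2 overlaps ESR2 and SYNE1 overlaps ESR1 on the opposite strand. The sources do not say if strand was used in counting, so unspliced counts of these 4 genes are uncertain.

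The group spanned early to mid-S replication. In the 55 cells with a score of 40 to 70%, LMNB1 and SYNE2 were 2-copy in all 55 called cells (100%, 95% Wilson interval 93.5 to 100%). LMNB2 was 2-copy in 50 of 52 called cells (96.2%, 87.02 to 98.9%), SUN1 in 45 of 53 (84.9%, 72.9 to 92.1%), SUN2 in 40 of 51 (78.4%, 65.4 to 87.5%) and SYNE1 in 39 of 55 (70.9%, 57.9 to 81.2%). These intervals cover counting error only. For LMNB2 and for SUN2, 3 cells each held bins in both states. The gene has no call in these cells, so its share leaves them out. SYNE1 was chosen on a contrast open only to genes with enough cells in each state, which bounded its 2-copy share from above. SYNE2 was called in the same cells, so their intervals are not independent. No difference between these nesprin genes is therefore read from their intervals. LMNA, LBR and EMD lie on chromosomes 1 and X, which have no copy calls.

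SYNE1 lay on a slope of replication. At its 3′ end, next to ESR1, the bin was 2-copy in 47 of 54 called cells (87.04%). Towards the 5′ end the share was lower, at 71.7% in the bin starting at chr6:152280001 and 69.1% at the 5′ end, where 38 of 55 cells had 2 copies. Beyond the 3′ end it reached 100% in the 4 bins farthest out, and beyond the 5′ end it fell to 63.6%. Of 55 cells, 34 had all called SYNE1 bins in the 2-copy state, 7 had all in the 1-copy state and 14 held both. SUN2 sat on a steeper slope, at the side of a dip. The bins over it were 2-copy in 79.6% and 74.1% of called cells, against 100% from the bin at chr22:38600001 outwards on the 3′ side. On the 5′ side the share was 57.8% in the bin at chr22:38840001, which was called in 45 of 55 cells. It was higher again farther out, at 86.7% in the next bin present (chr22:38960001, 45 called cells) and 96.4% at chr22:39080001. The 3 bins over SUN1 lay between 84.3% and 86.8%.

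**Figure D4:**
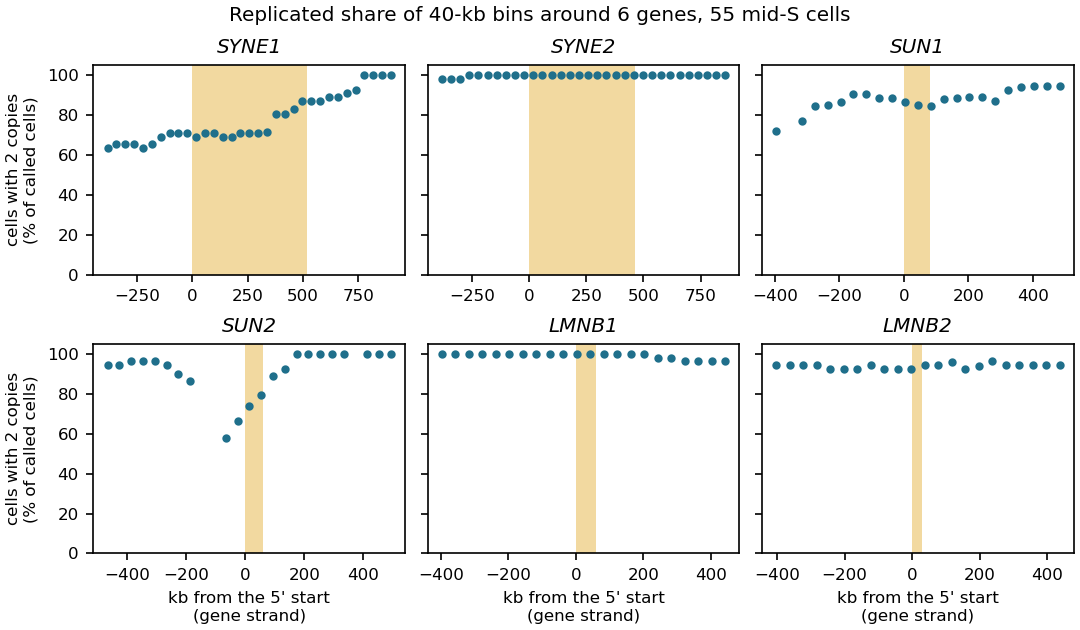
Percentage of called cells (of 55) with 2 copies in each 40-kb bin over and beside 6 genes, against distance from the 5′ start along the gene's strand, with the gene shaded. SYNE1 falls from 87.04% at its 3′ end to 69.1% at its 5′ end. SUN2 lies on the steep side of a dip, and SYNE2 and LMNB1 are at 100% over the gene.

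Whether RNA of these genes differs once the gene is replicated can be asked for those found in both states. The contrast chose the group, so the values below are a description and carry no test. Over all genes, 210 of 2455 tested (8.55%) had p under 0.05 in spliced RNA by the two-sided Wilcoxon rank-sum test and 0 passed Benjamini-Hochberg adjustment (lowest adjusted p 0.234). A call with the lower median at 2 copies was made for 2.73%. In unspliced RNA 212 of 3159 genes (6.71%) had p under 0.05 and 0 passed adjustment (lowest adjusted p 0.300). Of the 6 genes with a copy state, SYNE1 and SUN2 met the limits of this test, which leave out genes with a state held by over 80% of cells. SYNE1 was the 1 called in spliced RNA and neither was called in unspliced RNA. As the contrast was used to choose them, nothing is read from these counts.

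Spliced SYNE1 RNA was lower in cells with 2 copies. The 39 2-copy cells had 0 TPM at the lowest, 0.07 at the median and 19.6 at the highest, against 0, 1.18 and 26.65 TPM in the 16 1-copy cells. The ranges overlapped, and 5 of 39 2-copy cells reached 1 TPM, against 10 of 16 1-copy cells. The mean difference was -1.10 ± 0.41 on the log2(TPM + 1) scale (SE), where the median of the 2455 genes tested was 0.07. SYNE1 was chosen on this value, so no rank among these genes is read from it. It was -1.70 ± 0.60 in the later library set (18 2-copy and 9 1-copy cells) and -0.30 ± 0.40 in the first set (21 and 7 cells). A difference between the sets was not tested. Taking the state of the bin at the 5′ start gave -1.17 ± 0.41. Replication scores of the 2 kinds of cell overlapped widely, with medians of 54.96% in 2-copy and 51.7% in 1-copy cells. The median of unspliced SYNE1 was 2.25 counts at 2 copies and 2.19 at 1 copy, with a mean log2 difference of -0.12 ± 0.43.

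SUN2 and SUN1 differed between states by amounts near their errors. For spliced SUN2 the lowest, median and highest TPM were 0, 17.5 and 89.1 in 40 2-copy cells, against 7.93, 26.7 and 76.8 in 11 1-copy cells. Its mean difference was -0.52 ± 0.41 on the log2 scale and 0.01 ± 0.47 by the state of the bin at its 5′ start, where 14 cells had 1 copy. Unspliced SUN2 had medians of 32.8 counts in 2-copy and 52.8 in 1-copy cells, while the mean log2 difference was 0.28 ± 0.90, so median and mean differ in sign. For spliced SUN1 they were 27.5, 98.85 and 303 in 45 2-copy cells, against 20.7, 83.2 and 111.52 in 8 1-copy cells, a difference of 0.33 ± 0.29. The median of unspliced SUN1 was 61.4 counts at 2 copies and 23.7 at 1 copy, a difference of 1.03 ± 0.87. It was 2.01 ± 1.12 in the later set and 0.03 ± 1.04 in the first. Without the 1-copy cell of the first set that had 419 counts it was 1.60 ± 0.74 over all cells and 0.92 ± 0.65 in the first set. Leaving out the highest 1-copy cell can only raise this difference, and the highest 2-copy cell (570 counts) was kept. Nothing is therefore read from the rise. By the state of the bin at the 5′ start the difference of unspliced SUN1 was 0.39 ± 0.78, and edgeR gave 0.25. Median scores were 52.6% in 2-copy and 56.1% in 1-copy cells for SUN2, and 53.7% in 2-copy and 57.3% in 1-copy cells for SUN1. The 2 cells with 1 copy of LMNB2 had 45.5 and 51.9 TPM, inside the range of 18.1 to 120 TPM of the 50 cells with 2 copies, and 0 unspliced counts.

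**Figure D5:**
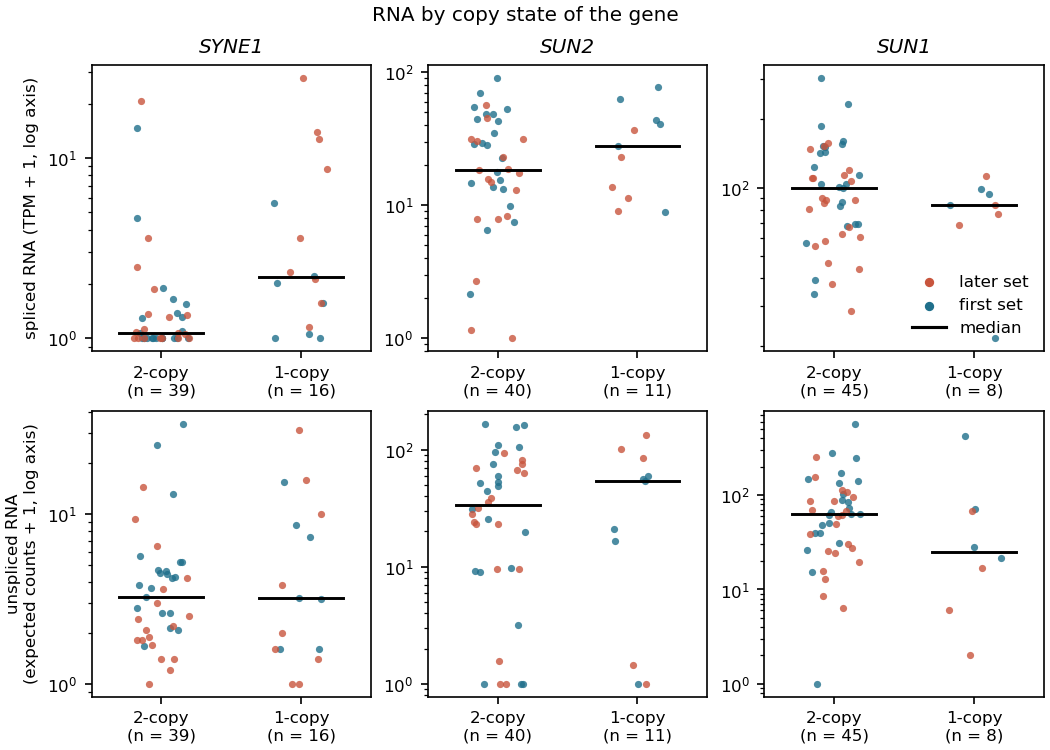
Spliced RNA (top, TPM + 1) and unspliced RNA (bottom, expected counts + 1) of SYNE1, SUN2 and SUN1 on log axes in cells with 2 copies (left) and 1 copy (right) of the gene, with medians as bars and library sets in colour. Ranges overlap in every panel, and the SYNE1 spliced median is 0.07 TPM at 2 copies and 1.18 TPM at 1 copy.

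Along the replication score, none of the 9 genes changed past the threshold. With the score as a smooth term (mgcv, log10(TPM + 1)), 7 of 17132 genes (0.0409%) had an adjusted p under 0.05, and 0 of the 9 genes did. Excluding SYNE1, whose model is not free of the contrast that chose it, adjusted p ran from 0.447 (LBR) to 0.998 (LMNA). LBR alone had an unadjusted p under 0.05 (0.0366), with a slope of -0.07 in log10(TPM + 1) for each 10 points of score. With the library set as a term the slope was -0.03 (unadjusted p 0.196), and with the 2 cells of most extreme score left out the unadjusted p was 0.0801. A straight-line fit with limma also called 0 of the 9. EMD had a slope of 0.06 (adjusted p 0.494). Spearman's rho with the score was -0.30 for LBR (0.01 within the later set and -0.26 within the first, n = 27 and 29) and 0.22 for EMD (0.16 and 0.17). Scores ran from 39.7% to 67.2% in the cells above the gap of the long arm and from 43.7% to 67.2% in those below, and the part of the arm level in the LBR slope was not tested. For the other 7 genes rho lay between -0.15 (LMNB2) and 0.15 (SYNE1). In unspliced RNA the model called 0 of 12441 genes (0%), with 1073 at an unadjusted p under 0.05. Of the 5 genes of the group tested, SUN1 had the lowest adjusted p, 0.447, with a slope of -0.25 (unadjusted p 0.00509). With the library set as a term the slope was -0.22 (unadjusted p 0.0241). The rho of unspliced SUN1 with the score was -0.34, and -0.20 within the later set and -0.22 within the first. Scaled to the unspliced total of the cell it was -0.31. Unspliced SUN1 had a rho of 0.49 with that total, and the part of the total in the slope was not tested. Of 36 related genes in 5 lists (inner membrane partners, other LINC genes, lamin tail processing, LBR partners and envelope reassembly), 32 were tested and 0 were called by mgcv, with 4 at an unadjusted p under 0.05, beside 1778 of the 17132 genes. Slopes were positive for 21 and negative for 11, but the split over all genes was not taken, so nothing is read from it. In the reassembly list, IST1, which regulates ESCRT-III, had a median of 113.05 TPM and VRK1, the kinase that releases BANF1 from chromatin, 81.8 TPM. All 6 genes of that list were detected at a median of at least 5 TPM.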

How the data were processed

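Single HAP1 cells were sorted, and libraries of DNA and RNA were joined into 1 cell by their shared number. The authors aligned DNA reads to hg38 with BWA (0.7.17-r1188 in the submitters' processing notes) and called 40-kb bins 1-copy, 2-copy or no call, leaving out chromosomes 1, 15 and X. For a gene over several bins they averaged the bins. The deposited copy state is coded by the authors per bin and per gene. RNA was counted with the ramdaq pipeline on GENCODE v38, and the paper takes it mainly from cytoplasm, so nuclear RNA may be under-represented. Spliced RNA is deposited as TPM. No source used here gives the length behind TPM. Low values of 2121 multi-exon genes came to a median of 7.16 reads by exonic length and 107 by gene span, nearer to 1 read by exonic length. Unspliced values, made by the authors by subtracting exon from gene-body reads, were read here in units of expected counts, since they are fractional and their totals differ between cells. The name of the deposited table speaks of TPM, so this unit is not certain. The paper describes a reduction of the RNA reads to an equal number per cell before this counting. Unspliced totals ran from 425181 to 1353931, and the highest is above the number of reads the paper gives for that step. Read as counts of single reads, the values therefore do not all come from reads reduced to that number.

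The members and lists were chosen with earlier results of these data known, and the 2 library sets were found in the values. Copy states were compared by Wilcoxon test over all genes above 0 in over 50% of cells, called in at least 50%, with neither state in over 80% (SciPy 1.17.1). Additive models (mgcv 1.9.3, R 4.3.3) used genes of at least 1 TPM in at least 20% of cells, with Benjamini-Hochberg adjustment. limma 3.58.1 and, for rounded unspliced counts, edgeR 4.0.16 were alternatives. The Wilcoxon test and the additive model were tested on simulated data with known changes. Named genes were the 9 members, for each with a median of at least 5 TPM the 3 genes of highest rank correlation (set mean subtracted, above 0 in over 80% of cells, median at least 10 TPM), and from each list the called genes and the 2 most abundant. Other list genes named (CBX1, TM7SF2, DHCR7, SYNE3, SUN5, IRAG2) and the long-arm level were chosen after their values were seen. Promoter windows are from RefSeq (GRCh38.p14), which matched 8 of the 9 genes. GENCODE v44 gave overlaps. The G1 libraries and the other 7 mid-S cells were not analysed here.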

Additional observations from a re-analysis of the deposited data

Results flagged for a closer look

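In the 8 cells with 1 copy of SUN1, unspliced SUN1 reached 419 counts in 1 cell of the first library set, while the next highest had 71 and the lowest 1. The gap was 0.833 of the range of the group, above the critical value of 0.526 for 8 cells, on the scale of counts. On the log2(count + 1) scale it was 0.330, below that value. Its spliced SUN1 level, 83.2 TPM, was near the median of the 8. Of 4 sets of values looked at in groups of 4 to 10 cells, this was the 1 with such a gap. The sets were spliced and unspliced RNA in the 1-copy cells of SUN1 and in the cells without a call for SUN2. Chance gives about 1 in 20 for each set only if values are normally distributed, which was not tested for these counts.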

How the results depend on the processing

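Without a filter on low values, 380 of 7592 genes (5.01%) had p under 0.05 by the Wilcoxon test between 2-copy and 1-copy cells in spliced RNA. In unspliced RNA it was 380 of 7077 (5.37%). With the filter it was 210 of 2455 (8.55%) and 212 of 3159 (6.71%), so the counts rose as more genes were tested while the shares fell. The additive model called 2 of 17132 genes with the library set as a term and 26 of 27515 without a filter, against 7 of 17132. Of the 9 genes it called 0 under each. The SYNE1 spliced difference was -2.29 with a pseudocount of 0.1, against -1.10, by construction of the scale. Of 50 alternatives of the copy-state differences of SYNE1, SUN1 and SUN2, 49 moved by less than 1 SD between cells. This limit is wide and does not show that the values are stable. Unspliced SUN1 stayed inside it at 2.01 in the later set and 0.03 in the first, against 1.03. The alternatives that changed sign were spliced SUN1 (-0.06 in cells scored 45 to 65%, -0.08 in the later set), spliced SUN2 (0.01 by the bin at its 5′ start), unspliced SYNE1 (0.14 with a pseudocount of 0.1, 0.11 in the first set) and unspliced SUN2 (-0.38 in cells scored 45 to 65%, -0.06 by edgeR). The single-set and 5′-bin values and those without 1 cell were added after the data had been seen. Of 45 alternatives of the score correlations, 31 moved by less than their standard error. No paired analysis was possible because DNA and RNA libraries with the same number are 1 cell, and each cell has 1 state of a gene. Low SYNE1 values limit its comparison, and SUN1 and LMNB2 have few 1-copy cells.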
